A study of Homo sapiens with 6 samples.

Results

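The Fc receptor-like (FCRL) family was followed through 6 RNA sequencing libraries of Raji cells, a human Burkitt's lymphoma line that carries Epstein-Barr virus and that the labels describe as derived from the germinal centre. The family comprises 8 genes (FCRL1, FCRL2, FCRL3, FCRL4, FCRL5, FCRL6, FCRLA and FCRLB) among 23459 rows of the count table. All 8 had a row under their NCBI gene identifier. The family was chosen from earlier results of this same contrast, in which FCRL5 stood out, so the members' values are given as a description with standard errors and without p-values. One group of 3 libraries carried OBF1sh1, a short hairpin RNA (shRNA) directed at OBF1 and delivered by lentivirus. The other group of 3 carried SHC002, a non-targeting hairpin in the control cells. Both groups were exposed to virus for 5 days and then held under 3 µg/ml puromycin for 7 days, so both carry an integrated vector and the resistance gene. A single hairpin represents the knockdown. Nothing in the labels says whether the libraries of a group were grown as separate cultures, so p-values reflect how these libraries vary among themselves, and that variation may be technical.

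OBF1 is the product of POU2AF1 and serves B cells as a coactivator that joins the Oct factors on octamer DNA. FCRL proteins are immunoglobulin-superfamily relatives of the classical Fc receptors. FCRL1 to FCRL6 sit in the plasma membrane and carry tyrosine motifs in their tails. Inhibitory motifs (ITIMs) recruit phosphatases such as SHP-1, and activating (ITAM-like) motifs recruit kinases and adaptors, so that these receptors tune the signal of the B cell receptor. FCRLA and FCRLB lack a membrane anchor and stay inside the cell. In human tissue, FCRL1 marks mature B cells broadly, FCRL4 and FCRL5 are known from memory and atypical memory B cells, FCRL6 from cytotoxic T and NK cells, and FCRLA from germinal centre B cells.

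The libraries held 29569281 to 32612429 counts each. POU2AF1 stood at 244, 241 and 241 CPM (counts scaled to the normalised library size) in the OBF1 shRNA libraries, against 512, 516 and 512 CPM in the control shRNA libraries. The B cell label fitted its markers, since all 7 defining B cell genes were above the count filter, with summed levels of 4376 to 4436 CPM in OBF1 shRNA and 2641 to 2716 CPM in control shRNA libraries. Most of the gap between these sums came from MS4A1, with means of 2078 CPM in OBF1 shRNA and 702 CPM in control shRNA libraries. CD79A had means of 603 and 548 CPM in that order, and CD79B 610 and 664 CPM. The sums therefore do not describe each gene. Of 13 markers of T and NK cells, 12 had a row, and CD3D, CD2, GZMB, GNLY and NCAM1 were at 0 in all 6 libraries. Their summed level is given with FCRL6.

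Among the FCRL genes, FCRL1, FCRL2, FCRL3, FCRL4 and FCRL5 were at higher levels in OBF1 shRNA cells, by about 2.38-fold to 98.7-fold, and their groups did not overlap. FCRLA and FCRLB had overlapping groups, and FCRL6 had no read. Of the 7 members that passed the filter on low counts, 5 passed the edgeR quasi-likelihood test as higher and 0 as lower. Over all 12010 tested genes 75.4% were called in either direction, 37.5% as higher (4508 genes) and 37.9% as lower (4550 genes), and the groups did not overlap for 76.6%. With library sizes alone that split was 3476 higher and 5778 lower genes. Since this contrast chose the family, nothing is read from the members' count. In bulk RNA, more cells expressing a gene cannot be told apart from more RNA per cell.

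**Figure D1:**
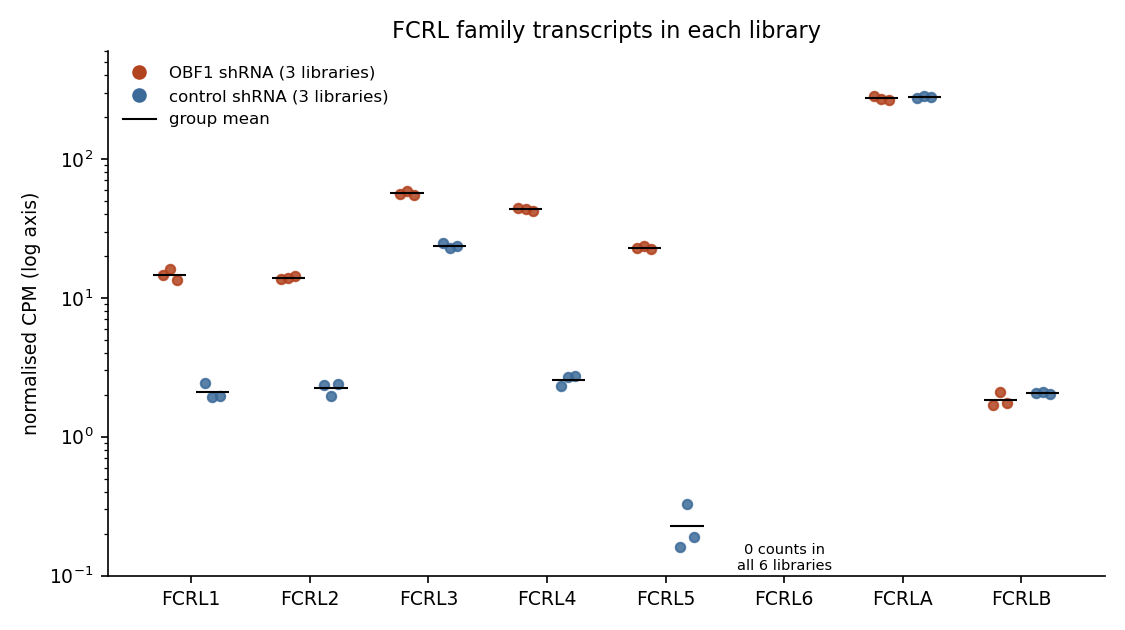
Normalised CPM of the 8 FCRL genes (log axis), with a point for each of 3 OBF1 shRNA and 3 control shRNA libraries and a line at each group mean. FCRL1 to FCRL5 separate without overlap, FCRLA and FCRLB overlap, and FCRL6 had 0 counts in all 6 libraries.

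FCRL5, a receptor for IgG that restrains B cell receptor signals through SHP-1, was nearly undetected in control cells. Its raw counts were 650, 716 and 703 in the OBF1 shRNA libraries, against 5, 11 and 6 in the control shRNA libraries. On the normalised scale FCRL5 was at 22.9, 23.5 and 22.4 CPM in OBF1 shRNA, against 0.160, 0.327 and 0.190 CPM in control shRNA libraries. All OBF1 shRNA libraries were high and close together, while the control values rest on few reads. The log2 fold change was 6.63 (SE 0.13, n = 3 per group). It had the highest fold change of the 12010 tested genes (rank 1). FCRL5 was picked from this contrast and passed the count filter through its OBF1 shRNA libraries alone. Nothing is therefore read from its rank. Without control shRNA replicate 2, the library with 11 reads, the estimate was 7.00.

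FCRL4, which is known from tissue memory B cells and blunts B cell receptor signals, showed the next highest fold change in the family. It had 1261, 1322 and 1320 counts in OBF1 shRNA, against 72, 91 and 86 counts in control shRNA libraries. This gave 44.4, 43.4 and 42.1 CPM in OBF1 shRNA, against 2.30, 2.71 and 2.73 CPM in control shRNA libraries. The log2 fold change was 4.06 (SE 0.07, n = 3 per group), or 16.7-fold, rank 51 of the tested genes. With at least 72 FCRL4 reads in each control library, this ratio rests on more control reads than that of FCRL5.

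FCRL1, which carries ITAM-like motifs and acts as a coactivating receptor, had 14.5, 16.0 and 13.5 CPM in OBF1 shRNA, against 2.43, 1.93 and 1.97 CPM in control shRNA libraries. The log2 fold change was 2.80 (SE 0.11, n = 3 per group). FCRL2, an ITIM-bearing receptor of memory B cells, had 13.6, 13.9 and 14.4 CPM in OBF1 shRNA, against 2.37, 1.96 and 2.41 CPM in control shRNA libraries, a log2 fold change of 2.64 (SE 0.09, n = 3 per group). FCRL1 and FCRL2 thus had like levels in each group and like fold changes, 6.95-fold and 6.23-fold, with standard errors that overlap.

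FCRL3, a receptor with both kinds of motif that is also made by regulatory T cells and NK cells, was the membrane member with the highest level in control cells. It had 55.5, 58.7 and 54.8 CPM in OBF1 shRNA, against 24.7, 22.8 and 23.7 CPM in control shRNA libraries. Its log2 fold change of 1.25 (SE 0.05, n = 3 per group) was the smallest of the 5. A non-coding antisense gene, FCRL3-AS1, overlaps FCRL3 in the RefSeq annotation. The strand setting of the counting is not given in the sources used here, so reads of the pair cannot be told apart.

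FCRLA, an intracellular protein that binds immunoglobulin in the endoplasmic reticulum, was the most abundant member in every library. It stood at 282, 270.2 and 267 CPM in OBF1 shRNA, against 273, 285 and 281 CPM in control shRNA libraries, with overlapping groups. The log2 fold change was -0.034 (SE 0.03, n = 3 per group). This value depended on scaling. With library sizes alone, which moved the log2 fold changes of all genes by about -0.11, FCRLA was at -0.14 and would count as lower.

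FCRLB, the other intracellular member, was scarce, with 48, 64 and 55 counts in OBF1 shRNA and 64, 71 and 64 counts in control shRNA libraries. That is 1.69, 2.10 and 1.76 CPM in OBF1 shRNA, against 2.05, 2.11 and 2.03 CPM in control shRNA libraries. The groups overlapped, and the log2 fold change of -0.16 (SE 0.15, n = 3 per group) is about the size of its error. FCRL6 had 0 counts in all 6 libraries, which allows up to 3 counts per library, or 0.0893 to 0.106 CPM, counting error only. Beside it, the T and NK cell markers with a row summed to between 0.985 and 1.18 CPM in OBF1 shRNA and between 0.192 and 0.268 CPM in control shRNA libraries. NKG7, a granule gene of cytotoxic cells, was the only one of them to pass the filter, at 0.844, 0.787 and 0.734 CPM in OBF1 shRNA and 0.0320, 0.208 and 0.190 CPM in control shRNA libraries. NKG7 passed through its OBF1 shRNA libraries alone (24, 24 and 23 counts, against 1, 7 and 6 in control shRNA libraries). It was called higher (edgeR adjusted p = 1.99e-05), and given this way of passing nothing is read from the call.

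**Figure D2:**
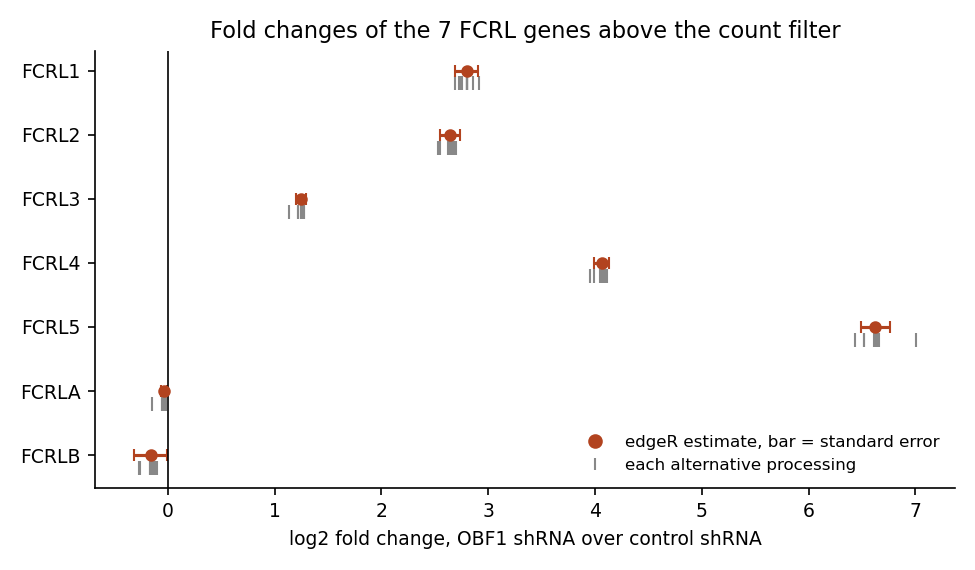
Log2 fold change of OBF1 shRNA over control shRNA for the 7 FCRL genes above the count filter (points, bars give the standard error), with a tick for each of the other processing settings. FCRL5 at 6.63 and FCRL4 at 4.06 lie farthest from 0, and the ticks of each gene stay on its side of 0.

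Levels of different genes were compared per length, as TPM, which are counts divided by the deposited gene length and scaled to a fixed sum per library. In OBF1 shRNA cells the order was FCRLA (212 ± 6.35 TPM, SD, n = 3), FCRL4 (31.9 ± 0.946), FCRL3 (31.3 ± 1.45), FCRL1 (11.8 ± 1.15), FCRL2 (10.1 ± 0.278), FCRL5 (6.79 ± 0.220) and FCRLB (1.78 ± 0.230). FCRL4 and FCRL3 overlapped there, while the lowest FCRL1 library, at 10.7 TPM, was just above the highest FCRL2 library, at 10.4 TPM. In control cells FCRLA (248 ± 3.20 TPM, SD, n = 3) and FCRL3 (15.0 ± 0.780) led. FCRLB (2.28 ± 0.0212), FCRL4 (2.17 ± 0.187), FCRL1 (1.94 ± 0.274) and FCRL2 (1.86 ± 0.227) followed with values that overlapped between neighbours in this order, and FCRL5 came last at 0.0762 ± 0.0289 TPM. FCRL5 has the longest deposited gene length of the family, 8597 bases. In OBF1 shRNA libraries its per-length level was below that of FCRL1, although its CPM was higher there.

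FCRLA made up 68.5% to 70.2% of the family's TPM in OBF1 shRNA libraries, against 91.0% to 91.8% in control shRNA libraries. FCRL1 to FCRL5 together came to 91.4, 95.4 and 88.6 TPM in OBF1 shRNA, against 22.0, 19.9 and 21.3 TPM in control shRNA libraries. TPM carries no composition factor. On this scale FCRLA was lower in OBF1 shRNA, with 219, 212 and 206 TPM in OBF1 shRNA against 245, 249 and 251 TPM in control shRNA libraries, while its groups overlapped in normalised CPM.

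**Figure D3:**
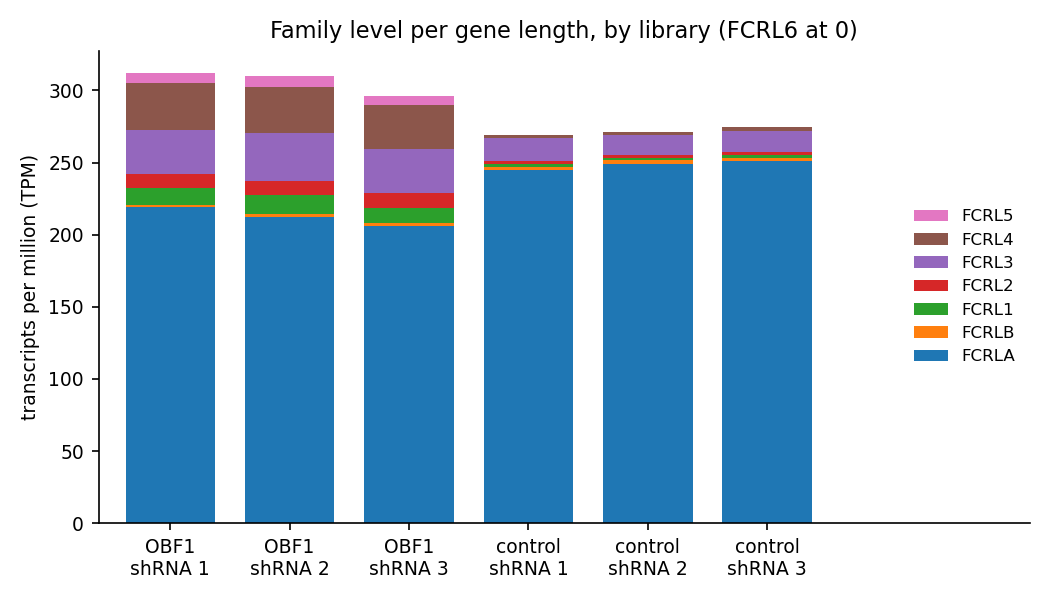
Stacked TPM of the FCRL genes in each of the 3 OBF1 shRNA and 3 control shRNA libraries. FCRLA is the largest part of every bar, and FCRL1 to FCRL5 add 88.6 to 95.4 TPM in OBF1 shRNA against 19.9 to 22.0 TPM in control shRNA libraries.

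The 5 genes at higher levels lie next to each other on chromosome 1, in the order FCRL5, FCRL4, FCRL3, FCRL2, FCRL1 with no other protein-coding gene between them in RefSeq. FCRL6 lies apart, and FCRLA and FCRLB are next to each other beside the classical Fc gamma receptor genes. The 250 bases upstream of the annotated start of the 5 neighbouring genes are shown because these genes moved together. They come from RefSeq on GRCh38.p14, all on the minus strand: FCRL5 at chr1:157552516-157552765, FCRL4 at chr1:157598086-157598335, FCRL3 at chr1:157700770-157701019, FCRL2 at chr1:157777133-157777382 and FCRL1 at chr1:157820121-157820370. Each is written 5′ to 3′ on the gene's strand and ends at the base before the start. Capitals mark matches of the letters searched as the ETS core (GGAAGT, or ACTTCC on the opposite strand).
FCRL5: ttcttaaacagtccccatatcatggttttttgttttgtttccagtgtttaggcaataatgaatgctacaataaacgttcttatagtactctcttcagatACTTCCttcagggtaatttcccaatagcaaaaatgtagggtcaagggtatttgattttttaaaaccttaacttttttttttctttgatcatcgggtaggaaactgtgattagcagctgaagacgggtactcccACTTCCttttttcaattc
FCRL4: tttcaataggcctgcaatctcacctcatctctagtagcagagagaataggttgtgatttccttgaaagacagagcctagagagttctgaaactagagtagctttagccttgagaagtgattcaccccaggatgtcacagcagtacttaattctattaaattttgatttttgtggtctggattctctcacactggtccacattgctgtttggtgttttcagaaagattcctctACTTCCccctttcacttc
FCRL3: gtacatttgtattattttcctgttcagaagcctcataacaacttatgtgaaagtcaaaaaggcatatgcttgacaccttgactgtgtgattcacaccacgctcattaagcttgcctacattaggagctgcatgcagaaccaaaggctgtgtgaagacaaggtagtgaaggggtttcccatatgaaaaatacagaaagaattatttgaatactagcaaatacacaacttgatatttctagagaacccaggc
FCRL2: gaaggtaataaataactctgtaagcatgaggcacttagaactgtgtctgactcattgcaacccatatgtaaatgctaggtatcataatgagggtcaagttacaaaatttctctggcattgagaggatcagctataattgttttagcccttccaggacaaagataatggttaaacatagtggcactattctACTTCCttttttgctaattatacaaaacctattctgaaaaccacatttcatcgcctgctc
FCRL1: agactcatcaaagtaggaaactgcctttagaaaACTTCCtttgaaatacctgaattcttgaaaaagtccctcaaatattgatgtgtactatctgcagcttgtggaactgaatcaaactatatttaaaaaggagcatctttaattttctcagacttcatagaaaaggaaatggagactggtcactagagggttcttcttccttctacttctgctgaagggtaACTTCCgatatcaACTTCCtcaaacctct

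The octamer bound by Oct factors and OBF1 was searched as ATGCAAAT and ATTTGCAT, without mismatches. It was in none of these 5 windows. Among the 11 upstream windows of the 8 genes (FCRL6 and FCRLB have several annotated starts) it was in 1, at the first FCRLB start, and in 1.63% of all 35116 windows of that length in the RefSeq table. The match and its surroundings at chr1:161721468-161721497 (GRCh38.p14, plus strand) are printed here because FCRLB had the only match, with the octamer in capitals.
FCRLB: tcctaagaggcATTTGCATttttaaaaggg

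The letters searched as the ETS core, GGAAGT, were picked after the sequences had been read. They contain the shorter GGAA that factors such as PU.1 and Spi-B recognise, which was not counted by itself. GGAAGT was in 7 of the 11 windows and in 6 of the 8 genes, among them FCRL5, FCRL4, FCRL2 and FCRL1 but not FCRL3. The FCRL3 window does hold the shorter letters on the opposite strand (TTCC). Over all 35116 windows 19.5% held GGAAGT, and over the 13695 windows of tested genes 23.5%. Since the motif was picked from the family's own windows, their count cannot be weighed against these shares. Its nearest match ran from base -18 to -13 before the start in both FCRL5 and FCRL4, from -16 to -11 in FCRL1, and from -60 to -55 in FCRL2. FCRLA, whose groups overlapped, held it from -44 to -39. No window held both the octamer and GGAAGT, so an overlap of the motifs could not arise. The windows of the 5 genes were 58.8% to 65.2% A and T. These are matches of letters, not sites shown to be bound.

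Protein-coding genes around the family were called in both directions. The 8 genes on each side of each member gave 48 neighbours, of which 12 were tested, with 6 higher and 5 lower (edgeR adjusted p under 0.05, 75.4% of all genes called). On the FCRL5 side, and named with their values known, ETV3, the nearest gene, had 8.62 ± 0.680 CPM in OBF1 shRNA and 10.1 ± 0.579 CPM in control shRNA libraries (SD, n = 3, edgeR adjusted p = 0.0172). ARHGEF11 had 1.86 ± 0.142 CPM in OBF1 shRNA and 3.56 ± 0.320 CPM in control shRNA libraries (SD, n = 3, edgeR adjusted p = 5.93e-06). Both were called lower, ETV3 with less certainty: it lost its call with DESeq2 (adjusted p = 0.0665), without OBF1 shRNA replicate 2 (edgeR adjusted p = 0.0585) or 3 (0.0830) and without control shRNA replicate 1 (0.0830). On the other side, CD5L, KIRREL1, CD1D, CD1A, CD1B, CD1C and CD1E, the last 5 encoding lipid-presenting molecules, were all under the filter in both groups.

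Near FCRLA and FCRLB, FCGR2B rose to 8.55, 8.17 and 8.68 CPM in OBF1 shRNA, against 3.20, 3.93 and 3.27 CPM in control shRNA libraries (log2 fold change 1.28, SE 0.10, edgeR adjusted p = 1.31e-09). It encodes the inhibitory IgG receptor of B cells, and FCGR2C, a near copy, was under the filter, so reads of the pair may be divided between them. ATF6, an endoplasmic reticulum stress sensor, fell by 0.53 on the log2 scale (edgeR adjusted p = 3.03e-11). Close to FCRL6, TAGLN2, an actin-binding protein gene, was 1.32-fold higher (edgeR adjusted p = 1.83e-10).

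**Figure D4:**
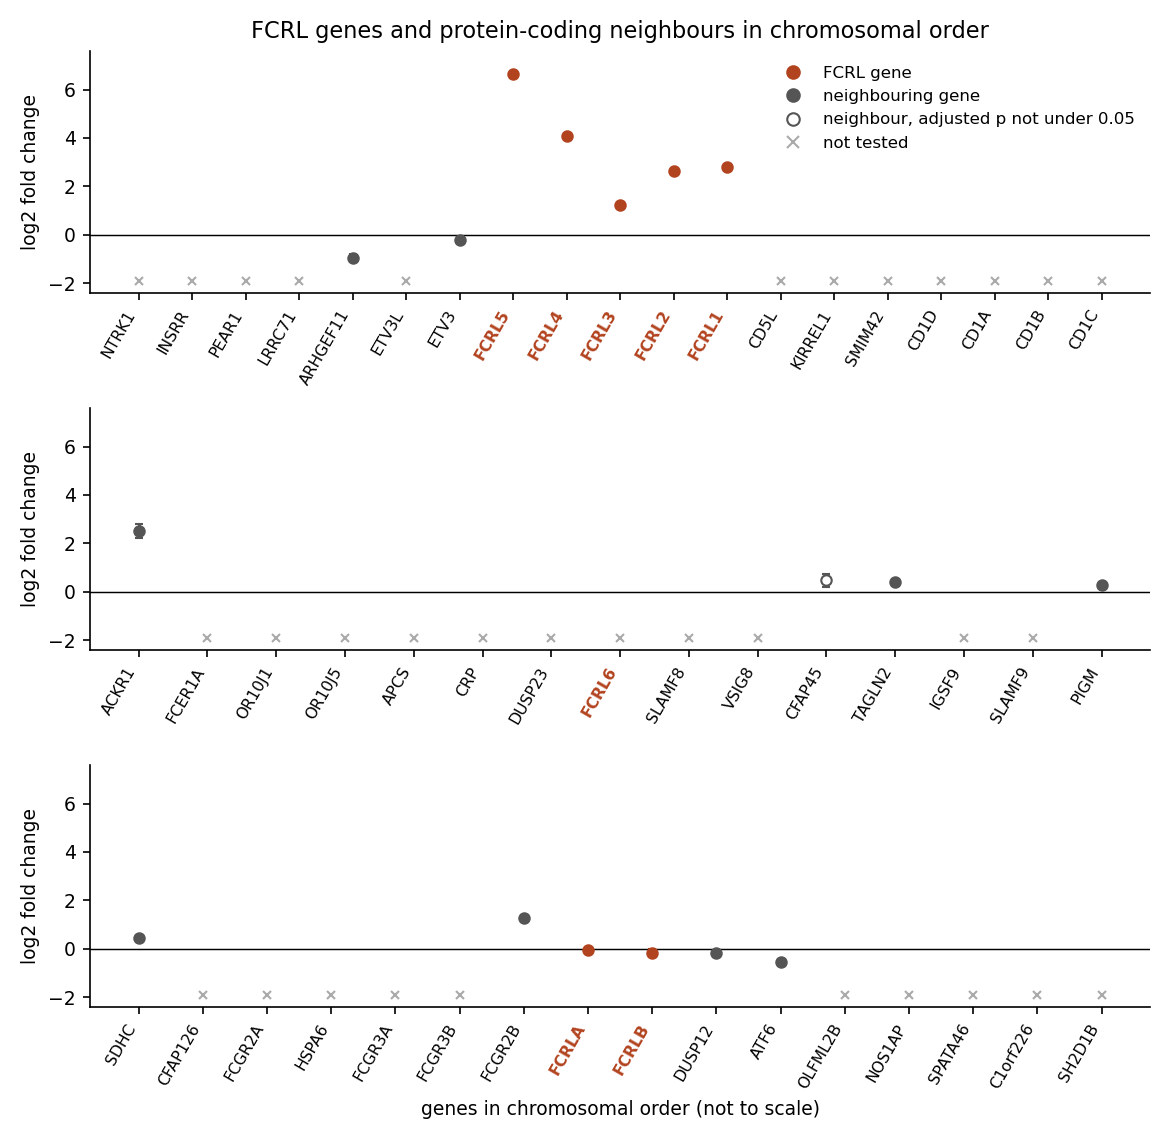
Log2 fold change (OBF1 shRNA over control shRNA, bars give the standard error) of the FCRL genes and 7 protein-coding genes on each side, in chromosomal order in 3 blocks. The 5 adjacent genes FCRL5 to FCRL1 lie between 1.25 and 6.63, and crosses mark genes that were not tested.

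Of 19 listed genes whose products carry the FCRL signal, 17 were tested, and 13 rose, 3 fell and 1 did not pass (edgeR adjusted p under 0.05), against 37.5% higher and 37.9% lower over all tested genes. In all 75.4% of the tested genes were called, so a call by itself sets no gene of these lists apart. The partners had a median log2 fold change of 0.71 beside -0.0071 for all tested genes. PTPN6, the SHP-1 phosphatase that docks on the ITIMs of FCRL2, FCRL4 and FCRL5, had 84.2, 82.2 and 83.7 CPM in OBF1 shRNA, against 2.95, 3.63 and 3.52 CPM in control shRNA libraries. Its groups lie far apart (log2 fold change 4.63, SE 0.06, edgeR adjusted p = 1.21e-20). PTPN11, the related SHP-2, had 311 ± 7.92 CPM in OBF1 shRNA and 309 ± 8.67 CPM in control shRNA libraries (SD, n = 3, edgeR adjusted p = 0.768), but with library sizes alone it was called lower (edgeR adjusted p = 0.00371). Some genes stand in more than 1 of the lists described here, among them CD22, CD72, FCGR2B and JCHAIN.

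INPP5D, the lipid phosphatase SHIP-1, rose to 266 ± 3.04 CPM in OBF1 shRNA, against 148 ± 2.46 CPM in control shRNA libraries (SD, n = 3, edgeR adjusted p = 1.91e-15). The Src-family kinase gene LYN, which phosphorylates these tails in B cells, had 97.9, 97.6 and 97.7 CPM in OBF1 shRNA, against 45.5, 48.2 and 49.1 CPM in control shRNA libraries (log2 fold change 1.04, SE 0.04, edgeR adjusted p = 1.16e-14). FGR, another kinase of that family, was 3.11-fold higher (edgeR adjusted p = 7.18e-19), while FYN, also of that family and named with its values known, fell by 0.99 on the log2 scale (edgeR adjusted p = 2.39e-14). SYK, the kinase that binds phosphorylated ITAMs, was 1.82-fold higher (edgeR adjusted p = 3.39e-15).

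The adaptors GRAP and GRB2, which bind the tail of FCRL1, moved unequally. GRAP rose to 102 ± 2.13 CPM in OBF1 shRNA, against 48.7 ± 1.33 CPM in control shRNA libraries (SD, n = 3, edgeR adjusted p = 5.66e-15). GRB2 was 1.11-fold higher (edgeR adjusted p = 2.20e-05), but with library sizes alone it did not pass (edgeR adjusted p = 0.0972). ZAP70, a T cell kinase reported to bind FCRL3, had 2, 2 and 1 counts in OBF1 shRNA and 0, 1 and 0 counts in control shRNA libraries. It was under the filter and was not tested. SOS1, an exchange factor for Ras that is named with its values known, fell by 0.71 on the log2 scale (edgeR adjusted p = 1.93e-11).

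In the B cell receptor complex and its coreceptor, through which FCRL5 also acts, 7 of 9 tested members rose and 2 fell (edgeR adjusted p under 0.05, median log2 fold change 0.70), beside 37.5% higher and 37.9% lower of all tested genes. CR2, the complement receptor CD21 that modulates FCRL5 signals when engaged with it, rose to 655 ± 13.0 CPM in OBF1 shRNA, against 226 ± 3.26 CPM in control shRNA libraries (SD, n = 3, edgeR adjusted p = 2.86e-19). PTPRC, the CD45 phosphatase, was 2.29-fold higher and MS4A1, encoding CD20, 2.96-fold higher (edgeR adjusted p = 1.64e-17 and 1.17e-19). The members that fell, named with their values known, were CD79B, which fell by 0.12 on the log2 scale (edgeR adjusted p = 0.00151), and CD81, which fell by 0.26 (edgeR adjusted p = 6.47e-07). With library sizes alone, CD79A lost its call as higher (adjusted p = 0.318).

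Among 16 genes listed as other ITIM-bearing receptors, 8 of 9 tested members rose and 1 fell (edgeR adjusted p under 0.05, median log2 fold change 1.28), where 37.5% of all tested genes were higher and 37.9% lower. LAIR1, a collagen receptor, rose to 17.2 ± 1.59 CPM in OBF1 shRNA, against 3.66 ± 0.236 CPM in control shRNA libraries (SD, n = 3, edgeR adjusted p = 1.29e-13). CD72 was 2.94-fold higher, LILRB1, a receptor for MHC class I, 2.90-fold and CD22, a sialic acid-binding receptor, 1.62-fold higher (edgeR adjusted p = 1.46e-13, 1.87e-12 and 1.47e-14). The member that fell was CLEC2D, by 0.39 on the log2 scale (edgeR adjusted p = 2.37e-09), named with its values known. It is known as the ligand of the NK receptor CD161 rather than as an ITIM-bearing receptor, so its fall is not read as that of the class. CD5 and CD300A were at 0 in all 6 libraries.

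Most immunoglobulin receptors outside the family were under the count filter. Of 16 listed, 5 passed the filter, of which 4 rose, 0 fell and 1, FCER1G, did not pass the test (edgeR adjusted p under 0.05, median log2 fold change 0.62). Over all tested genes 75.4% were called and 37.5% were higher. FCER2, the IgE receptor CD23, had 45.0, 43.5 and 45.7 CPM in OBF1 shRNA, against 3.59, 4.58 and 4.41 CPM in control shRNA libraries (log2 fold change 3.41, SE 0.07, edgeR adjusted p = 4.62e-18). FCMR, the IgM receptor, was 1.53-fold higher and TRIM21, an intracellular IgG receptor, 1.30-fold higher (edgeR adjusted p = 0.000212 and 1.94e-06). FCGR1A, FCGR3B, FCER1A and MS4A2 were at 0 in all 6 libraries.

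Chains of known FCRL ligands were measured as RNA, and 3 of 4 rose and 1 fell (edgeR adjusted p under 0.05, median log2 fold change 1.76; 37.5% higher and 37.9% lower over all tested genes). HLA-DR, the ligand of FCRL6, rose while FCRL6 itself had no read: HLA-DRA was 2.88-fold and HLA-DRB1 4.17-fold higher (edgeR adjusted p = 8.04e-19 and 4.48e-20). HLA-DRB5 resembles HLA-DRB1 closely, so their separate values are uncertain. JCHAIN, the joining chain of the polymeric IgA that FCRL3 and FCRL4 bind, fell to 468 ± 5.04 CPM in OBF1 shRNA, against 583 ± 4.67 CPM in control shRNA libraries (SD, n = 3, edgeR adjusted p = 7.46e-10).

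Genes known from the memory and atypical memory B cells in which FCRL4 and FCRL5 are described were called in both directions. Of 18 listed, 10 were tested, 7 rose and 3 fell (edgeR adjusted p under 0.05, median log2 fold change 0.97), while all tested genes gave 37.5% higher and 37.9% lower. CD86 and CD80, ligands of CD28, were 5.43-fold and 2.88-fold higher (edgeR adjusted p = 9.22e-20 and 5.82e-16). SOX5, a transcription factor gene high in atypical memory B cells, had 2.19 ± 0.239 CPM in OBF1 shRNA and 37.2 ± 1.24 CPM in control shRNA libraries, and was called lower (SD, n = 3, edgeR adjusted p = 1.98e-18). CD27, a memory marker, fell by 0.77 on the log2 scale (edgeR adjusted p = 5.55e-14) and RUNX1 fell by 0.75 (edgeR adjusted p = 7.23e-11), both named with their values known. TBX21 and ITGAX, defining genes of the atypical state, were under the filter in both groups.

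FCRL5 is also known from plasma cells. Of 7 tested plasma cell markers, 2 rose, 4 fell and 1 did not pass (edgeR adjusted p under 0.05, median log2 fold change -0.26), with 75.4% of all tested genes called and 37.9% lower. One of the 4, TNFRSF17, was not called by DESeq2 (adjusted p = 0.108) or in 3 of the 6 edgeR fits with a library left out (adjusted p = 0.0566, 0.118 and 0.208). PRDM1, a master regulator of plasma cells, was at 0.733 ± 0.266 CPM in OBF1 shRNA and 6.81 ± 0.123 CPM in control shRNA libraries (SD, n = 3, edgeR adjusted p = 3.73e-12). XBP1, which drives secretion, was at 106 ± 1.74 CPM in OBF1 shRNA and 240 ± 1.23 CPM in control shRNA libraries (SD, n = 3, edgeR adjusted p = 2.20e-17). IRF4 rose to 7.91 ± 0.784 CPM in OBF1 shRNA, against 0.619 ± 0.180 CPM in control shRNA libraries (SD, n = 3, edgeR adjusted p = 4.61e-13). SDC1, the plasma cell surface marker CD138, was under the filter. The 10 myeloid markers summed to at most 1.44 CPM in any library, and S100A9, CD163 and MPO were at 0. LYZ was called lower (edgeR adjusted p = 0.000202) at 0.157 ± 0.0472 CPM in OBF1 shRNA and 0.605 ± 0.158 CPM in control shRNA libraries (SD, n = 3). LYZ passed the count filter through its control shRNA libraries alone (19, 15 and 24 counts, against 6, 4 and 4 in OBF1 shRNA libraries). Nothing is read from that call. The part that other cell types play in the FCRL values was not tested.

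**Figure D5:**
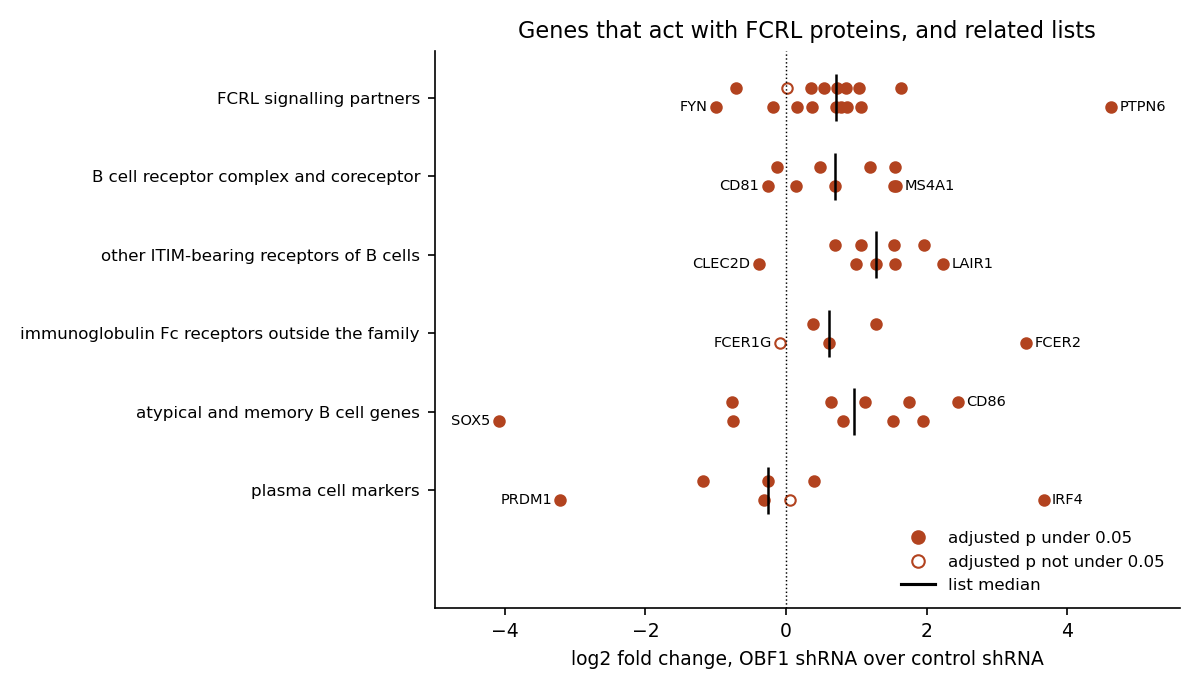
Log2 fold change (OBF1 shRNA over control shRNA) of each tested gene in 6 lists tied to FCRL function, with the list median as a line and the lowest and highest gene named. PTPN6 at 4.63 is the highest partner gene, and open points did not pass the edgeR test.

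The tested genes most like each member were found by the Euclidean distance between log2(CPM + 0.5) values, centred on each gene's mean, over the 6 libraries. Nearest to FCRL5 were SEMA7A (distance 0.215), a membrane semaphorin gene, then PTPN6 (0.726) and the chemokine gene CCL22 (0.737). FCRL4 was nearest to PHACTR1 (0.215), GPR183 (0.291) and ARID5B (0.295). For FCRL2 the nearest were CD86 (0.127), HLA-DPB2 (0.164) and LINC02909 (0.179), and for FCRL1 CASP4 (0.170), HCP5 (0.206) and LINC02909 (0.232). FCRL3 lay closest to SPRYD4 (0.0618), ADPRH (0.0633) and GPCPD1 (0.0670). FCRLA lay closest to DYNLT3 (0.0271), TBC1D22B (0.0282) and PRPF6 (0.0316), and FCRLB to ZRANB3 (0.0749), RGPD5 (0.0810) and GMEB1 (0.0854). No member of the family was among the 3 nearest genes of another. The 6 libraries fall into the groups of 1 contrast, and the pseudocount of 0.5 CPM shrinks differences of genes with low control levels. A small distance can therefore join unlike fitted fold changes, as for SEMA7A, whose log2 fold change was 5.13 beside 6.63 for FCRL5, and CASP4, at 3.63 beside 2.80 for FCRL1.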

How the data were processed

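Counts per gene were analysed from 6 libraries of Raji cells, 3 with an OBF1 shRNA and 3 with a control shRNA. The authors deposited raw read counts in 1 table with a column of gene lengths. A stranded poly(A) kit was used, per the labels' protocols, and the submitters' processing notes list the builds hg19 and mm9. The aligner, counting tool, annotation and strand setting are not stated in the labels or file header, so values of near copies and overlapping genes are uncertain. All 6 count columns were used, and 0 were left out. Symbols came from a RefSeq gene table (GRCh38.p14), matched for 23308 of 23459 identifiers. Upstream windows came from the RefSeq promoter table of the same build.

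The members, lists and tests were chosen with earlier results of these data known. Genes named are the 8 members, POU2AF1, 9 documented FCRL partners, up to 4 tested genes with the smallest p-value per list and among neighbours, and the 3 genes most like each member. All other genes were named with their values known, and the text does not repeat this for each of them. Some genes under this rule are not reported here.

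The test was run with edgeR 4.0.16 (R 4.3.3): filterByExpr (min.count 10, min.total.count 15) kept 12010 genes, library sizes were TMM-scaled, and the quasi-likelihood F test used no covariate, with Benjamini-Hochberg adjustment over all tested genes and a threshold of 0.05. Standard errors are the log2 fold change divided by the square root of F. Normalised CPM uses TMM-scaled library sizes; TPM does not. The fit was also run on simulated counts in which few genes changed and all genes shared a common dispersion. In these data 75.4% of tested genes were called, so that run cannot show how the fit performs at such a share. Alternatives were DESeq2 1.42.0, RLE factors, library sizes alone, 2 other filters, a replicate block and leaving out each library. Total counts were 29569281 to 32612429 per library. Replicate pairs differed by 1.84 to 3.17 chi-square per degree of freedom, more than counting error, so none was treated as the same library.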

Additional observations from a re-analysis of the deposited data

How the results depend on the processing

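FCRL1, FCRL2, FCRL3, FCRL4 and FCRL5 kept their direction under all 12 alternatives. Their log2 fold changes were 2.69 to 2.91, 2.53 to 2.70, 1.14 to 1.28, 3.95 to 4.11 and 6.44 to 7.00, in that order. These refits use the libraries whose contrast chose the family, so they describe dependence on processing only. FCRLB stayed between -0.27 and -0.099. FCRLA was called lower with library sizes alone (-0.14), which carry no composition factor, and ranged from -0.056 to -0.015 with a library left out. Library sizes alone also gave 3476 higher and 5778 lower genes, against 4508 and 4550, and turned PTPN11 to -0.10 on the log2 scale, called lower (adjusted p = 0.00371). PTPN11 was also below 0 without OBF1 shRNA replicate 2 (-0.0079) and without control shRNA replicate 2 (-0.0064), and the myeloid gene CSF1R without OBF1 shRNA replicate 1 (-0.00013); with a library left out PTPN11 reached at most 0.037 and CSF1R at most 0.66, and neither was called in these fits. Without a low-count filter, 2 T and NK cell and 2 myeloid markers were called higher, against 1 and 0. At 1 CPM in 3 libraries 0 T and NK cell markers were higher and 0 myeloid markers lower, since that filter removes them. The plasma cell gene TNFRSF17 was no longer called lower by DESeq2 (adjusted p = 0.108), nor by edgeR when OBF1 shRNA replicate 2 (0.208), control shRNA replicate 3 (0.118) or control shRNA replicate 2 (0.0566) was left out. In all 9058 genes were called, against 8344 by DESeq2 and 9547 with no low-count filter. Deviations from the group means correlated at 0.0279, -0.172 and -0.109 between same-numbered libraries, and at -0.104 to 0.205 between libraries with different numbers. Deviations from a mean of 3 libraries constrain one another, so these values cannot show whether equal numbers paired the libraries. With the replicate block 8759 genes were called and the FCRL fold changes kept their direction. Low counts limit FCRL5 in control cells, FCRLB and FCRL6.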
